A study of Mus musculus with 2 samples.

Results

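A set of 9 TNF superfamily ligands other than TNF was followed in macrophages early after a bacterial stimulus. The genes are Tnfsf4, Tnfsf8, Tnfsf9, Tnfsf10, Tnfsf12, Tnfsf13, Tnfsf13b, Tnfsf14 and Tnfsf15, out of 55536 annotated genes, 22028 of them protein-coding. They were chosen by gene name in the annotation, GENCODE M21, under a rule that uses no measured value. Earlier results of these data were known when they were chosen. All 9 were found in both gene tables, with 17 transcript models between them. The libraries held RNA of the nucleoplasm of macrophages grown from the bone marrow of C57BL/6J mice, a fraction the labels also call nuclear, sequenced without ribosomal RNA. Every cell sample had been exposed to Lipid A, an agonist of TLR4, at 100 ng/ml for 40 min. The labels name no genetic change and do not give sex or age. The single group had 2 biological replicates, which the labels trace to the same donor identifier, with 1000 ng of RNA going into replicate 1 and 500 ng into replicate 2. Untreated cells, other times and other fractions were not analysed here, so all values are levels at this time and none is a response.

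Ligands of this family are made as trimeric proteins on the cell surface, and several are cut off and released. Each binds a receptor of the TNF receptor superfamily, and the receptors signal through TRAF adaptor proteins to NF-κB and kinases or, for receptors with a death domain, to caspase 8. Antigen-presenting cells use the ligands to co-stimulate T cells (Tnfsf4, Tnfsf8, Tnfsf9, Tnfsf14, Tnfsf15) and to keep B cells and plasma cells alive (Tnfsf13, Tnfsf13b), while Tnfsf10 can trigger death of target cells and Tnfsf12 acts on tissue cells after injury. Inducible cytokine genes of macrophages are often transcribed within minutes of TLR4 signalling.

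The libraries held 19630046 and 18434601 expected counts, which are the authors' fractional read counts per gene. Levels are given as TPM, the authors' measure of transcript abundance that corrects for length and scales each library to the same total, and a gene was called detected at 1 TPM or more in both replicates. Nuclear-encoded protein-coding genes took 25.5% of all TPM in replicate 1 and 17.8% in replicate 2, and the median detected protein-coding gene had a TPM lower in replicate 2 by 0.49 on the log2 scale (rescaled values are given where this matters). All 8 macrophage markers were detected, with Lyz2 at 1820 and 1264 TPM. Of 37 markers of 8 other cell types, 1 was detected, the endothelial marker Kdr at 3.78 and 2.11 TPM, and 13 had no count in either library. In the FASTQ-derived tables Kdr had 1.95 and 1.49 TPM and the T cell marker Cd3d, with 2 and 4 counts in the alignment-based tables, was also past 1 TPM, at 2.38 and 4.28. In bulk RNA, fewer cells expressing a gene and less RNA per cell cannot be told apart.

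A single ligand, Tnfsf9, dominated the 9. It made up 95.6% of the summed TPM of the 9 ligands in replicate 1 and 95.8% in replicate 2, where the sums were 792 and 558 TPM. Tnfsf12 and Tnfsf13 followed at around 10 TPM, Tnfsf14 and Tnfsf4 at a few TPM, and Tnfsf15, Tnfsf10, Tnfsf13b and Tnfsf8 stayed under 1 TPM in both libraries. Thus 5 of 9 ligands were detected, beside 40.0% of all protein-coding genes. At 10 TPM or more in both libraries there were 2 of 9, beside 14.3% of protein-coding genes, and at 100 TPM or more 1 of 9, beside 1.29%. With 9 genes nothing was read from the difference between these shares. The detected count depends on the scale: it was 3 in the authors' second quantification, made from the FASTQ files (FASTQ-derived), and 8 when TPM was rescaled over nuclear-encoded protein-coding genes. Rescaling raises every gene of a library by the same factor. The share of protein-coding genes past 1 TPM was not counted on these 2 scales, so nothing particular to the ligands was read from these counts.

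**Figure D1:**
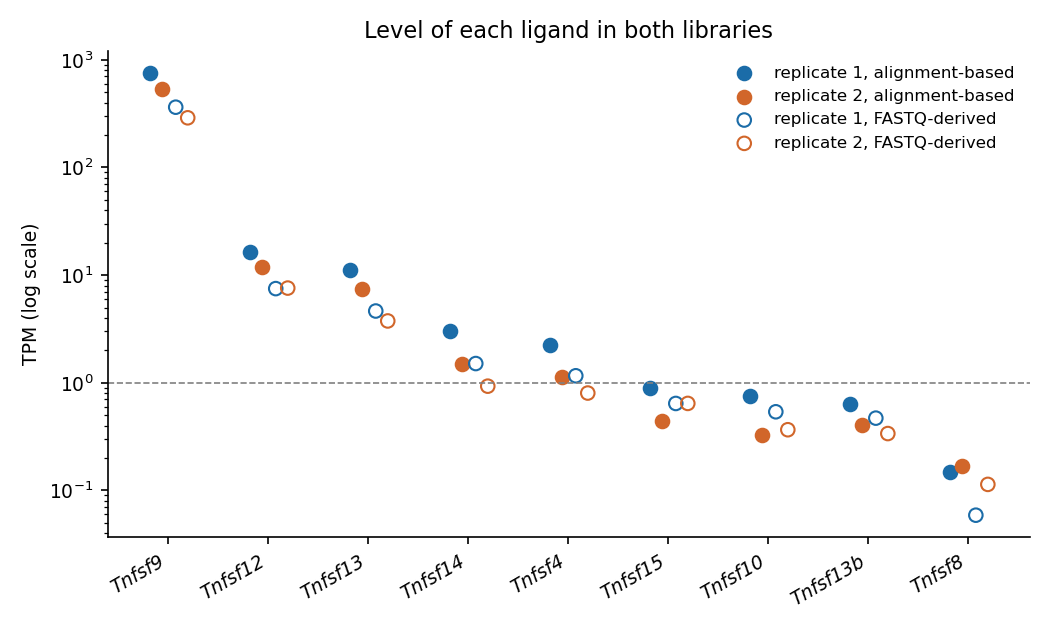
TPM of each ligand on a log axis, in replicate 1 (blue) and replicate 2 (orange), from the alignment-based tables (filled) and the FASTQ-derived tables (open); the dashed line marks 1 TPM. Tnfsf9 stands at 757 and 534 TPM and the next ligand, Tnfsf12, at 16.3 and 12 TPM by the alignment-based tables.

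The median ligand had a log2(TPM + 1) of 1.70 in replicate 1 and 1.09 in replicate 2 (mean 1.40 ± 0.43, SD, n = 2). The median over all protein-coding genes was 0.46 and 0.32, and over the 8810 detected ones 3.27 and 2.83. The typical ligand therefore lay between the typical gene and the typical detected gene, and the replicates differed by more than 0.5 on this scale in the same direction as the detected genes.

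Tnfsf9 encodes CD137 ligand, which co-stimulates T cells through CD137, the product of Tnfrsf9. It had 757 TPM in replicate 1 and 534 TPM in replicate 2 (mean 645 ± 157, SD, n = 2), from 17637 and 16223 expected counts. This put it at rank 36 and rank 33 among protein-coding genes. Its level was high in both libraries and the libraries did not overlap with those of any other ligand. The authors' posterior mean was 718 and 516 TPM, and their interval bounds, 707 to 729 and 508 to 524, are centred on that mean and lie below the deposited TPM itself.

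Replicate 2 was the lower library on the deposited scale, but the order reversed once TPM was rescaled over nuclear-encoded protein-coding genes, to 2972 and 3002. The FASTQ-derived levels were 363 and 289 TPM, lower by 1.06 and 0.88 on the log2 scale. The median detected protein-coding gene was lower in the FASTQ-derived tables too, by 0.84 and 0.51. Ratios within a library avoid this shift. Against Tnf, the founding ligand of the family at 1263 and 930.4 TPM, Tnfsf9 stood at 0.599 and 0.574 (mean 0.587 ± 0.0177), and at 0.635 and 0.621 in the FASTQ-derived tables. Tnfsf9 was thus a little over 0.5 times as abundant as Tnf in each library and by each quantification.

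Tnfsf9 is also the most compact of the 9 genes. It spans 2433 bases, chr17:57105325-57107757 on the plus strand of mm10, with 3 exons and a single annotated model, Tnfsf9-201, of 1290 bases. Spliced RNA of the gene carries these exon junctions, shown because the gene has no other model that a read across them could come from, with the downstream exon in capitals:
Tnfsf9 exon 1 to exon 2: aacactacacaacagGGCTCTCCTGTGTTC
Tnfsf9 exon 2 to exon 3: tactggctaaaaaccAAGCATCGTTGTGCA
The first joins base 57105860 to base 57106250 and the second joins base 57106286 to base 57107041. Neither 30-base sequence occurs in any other annotated model on either strand. The tables count whole fragments over models and do not say how many crossed a junction, so spliced and unspliced RNA were not separated.

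Exon 1 lies within the span of a lincRNA gene on the opposite strand, Gm11110 (chr17:57091370-57105942), of which the model Gm11110-202 shares 192 bases with Tnfsf9 exons and Gm11110-205 shares 113. Of the 31-base words in the Tnfsf9 model, 87.1% were found in no other gene's model on either strand and the rest only in Gm11110, on the opposite strand. Gm11110 had 42.03 and 43.01 expected counts (1.85 and 1.27 TPM), against which Tnfsf9 was 409 and 421 times as abundant. In the FASTQ-derived tables Gm11110 had 6.76 and 6.96 TPM and the ratio was 53.7 and 41.5. The strand setting of the counting was not given in the sources used here, so for the shared stretch reads of the 2 genes cannot be told apart. Of the expected counts of Gm11110, Gm11110-205 held 5.03 and 2.01 and Gm11110-202 held 0, while Gm11110-204, which shares no base with Tnfsf9 exons, held 31.1 and 37.8. The FASTQ-derived tables split the gene differently. There Gm11110-205 held 69.5 and 98.3 estimated counts and Gm11110-202 held 0. Gm11110-203, which shares no base with Tnfsf9 exons, held the most, 183 and 266.

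The 3′ untranslated region of Tnfsf9, 253 bases long, is the shortest of the 9 and holds 2 copies of the AU-rich heptamer TATTTAT. Such elements are a known feature of short-lived cytokine mRNAs, and Tnf has 8 copies in 764 bases. The copies in Tnfsf9 are shown as the RNA-like strand with the heptamer in capitals:
Tnfsf9 chr17:57107604-57107632: actggacttggTATTTATtctgagcatag
Tnfsf9 chr17:57107712-57107740: atcaaagtttaTATTTATattaatatata
They start 111 and 219 bases after the stop codon. Among 1515 protein-coding genes with a 3′ untranslated region within 50 bases of that length, 7.66% hold at least 1 copy and 0.726% hold 2 or more.

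The search covered the RNA strand of the longest complete coding model of each gene. TATTTAT was found in 5 of 9 ligands (Tnfsf8, Tnfsf9, Tnfsf10, Tnfsf13b and Tnfsf14) and in 27.5% of the 20861 protein-coding genes with a 3′ untranslated region. The pentamer ATTTA, which every TATTTAT contains, was found in 8 of 9, all but Tnfsf13, and in 64.7% of genes. These regions range from 253 bases in Tnfsf9 to 3998 in Tnfsf10, and longer regions have more chances to hold a match. Per kb of 3′ untranslated region, Tnfsf9 had the most ATTTA of the 9 ligands, 7.91, beside 10.5 in Tnf, 3.57 in Tnfsf8, the least abundant ligand, and at most 2.001 in the others. The median over protein-coding genes was 1.22. The Tnfsf9 value rests on 2 copies in 253 bases, and 9.97% of the 1515 regions of like length hold 2 or more ATTTA.

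Tnfsf12 and Tnfsf13 were the next ligands, and they are neighbours. Tnfsf12 encodes TWEAK, which acts on tissue cells through Fn14, and Tnfsf13 encodes APRIL, a survival factor of plasma cells. They lie on the minus strand of chromosome 11, Tnfsf12 at chr11:69686250-69695849 and Tnfsf13 at chr11:69682846-69685784, 465 bases apart. Tnfsf12 had 16.3 and 12 TPM (mean 14.1 ± 3.01), from 429.8 and 414 expected counts. Tnfsf13 had 11.1 and 7.39 TPM (SD 2.62), from 292 and 253 expected counts. Tnfsf12 was higher in each library, by 1.46 and 1.62 times, and its lower library was still above the higher library of Tnfsf13.

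A further annotated gene, Tnfsfm13 (chr11:69682577-69696098, minus strand), spans both and joins their exons into a read-through transcript, known in human as TWE-PRIL, a protein with the anchor of TWEAK and the receptor-binding part of APRIL. It had 378 and 432 expected counts and 9.14 and 7.77 TPM, a level between those of Tnfsf13 in replicate 1 and replicate 2. The 30-base sequences below show how models of the 3 genes differ at the read-through junction, with the 15 bases after the border in capitals:
Tnfsf12-202, last exon runs on: ctccgtttgtgccagGTGTCTGGGCTGTTG
Tnfsfm13-203, read-through junction: ctccgtttgtgccagACAGAGCTGCAAAGC
Tnfsf13-201, first exon runs through: ctactgatccaacagACAGAGCTGCAAAGC
The lower-case part is the same in Tnfsf12 and Tnfsfm13, and the capitals are the same in Tnfsfm13 and Tnfsf13. The read-through junction joins base 69686957 to base 69685130 across 1826 bases, and its sequence occurs in Tnfsfm13-202 and Tnfsfm13-203 and in no other annotated model. The other 2 sequences reach into the 1826 bases that the junction leaves out, so unspliced Tnfsfm13 RNA would hold them too.

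Much of the sequence at this locus is shared. Of the 31-base words of the main Tnfsf12 model, Tnfsf12-202, 50.3% were its own, and of Tnfsf13-201 30.6%, while Tnfsfm13-203 had 25.9% of its own and Tnfsfm13-202 1.88%. The own words of Tnfsfm13-203 are not only at the junction, since the model starts upstream of Tnfsf12-202 and ends beyond Tnfsf13-201. How many fragments crossed the junction is not given, and spliced and unspliced RNA were not separated. The counts of Tnfsfm13 are therefore no count of read-through junctions. The shared remainder was assigned by the authors' quantification. It gave 39.1% and 37.7% of the locus' expected counts to Tnfsf12, 34.4% and 39.3% to Tnfsfm13 and 26.6% and 23.0% to Tnfsf13. The read-through gene thus carried fewer assigned counts than Tnfsf12 in replicate 1 and more in replicate 2. In the FASTQ-derived tables the shares were 37.5% and 38.9% for Tnfsf12, 37.6% and 39.8% for Tnfsfm13 and 24.9% and 21.3% for Tnfsf13, so the second quantification split the locus in nearly the same way.

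Within genes, the assignment went mainly to a few models. Tnfsf12-202 received all 429.8 and 414 counts of its gene, and the shorter Tnfsf12-201 received 0. Tnfsfm13-203, the model that starts upstream of Tnfsf12 and ends beyond Tnfsf13, received 343 and 413 counts. Tnfsf13-201 received 217 and 208 counts and Tnfsf13-202 75.6 and 44.3. The summed locus counts were nearly equal between libraries, 1100.0 and 1099. In TPM the locus summed to 36.5 and 27.2, of which Tnfsf12 took 44.5% and 44.2% and Tnfsf13 30.4% and 27.2%. An antisense gene, Tnfsf13os, overlaps both and had 8 and 4 expected counts.

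**Figure D2:**
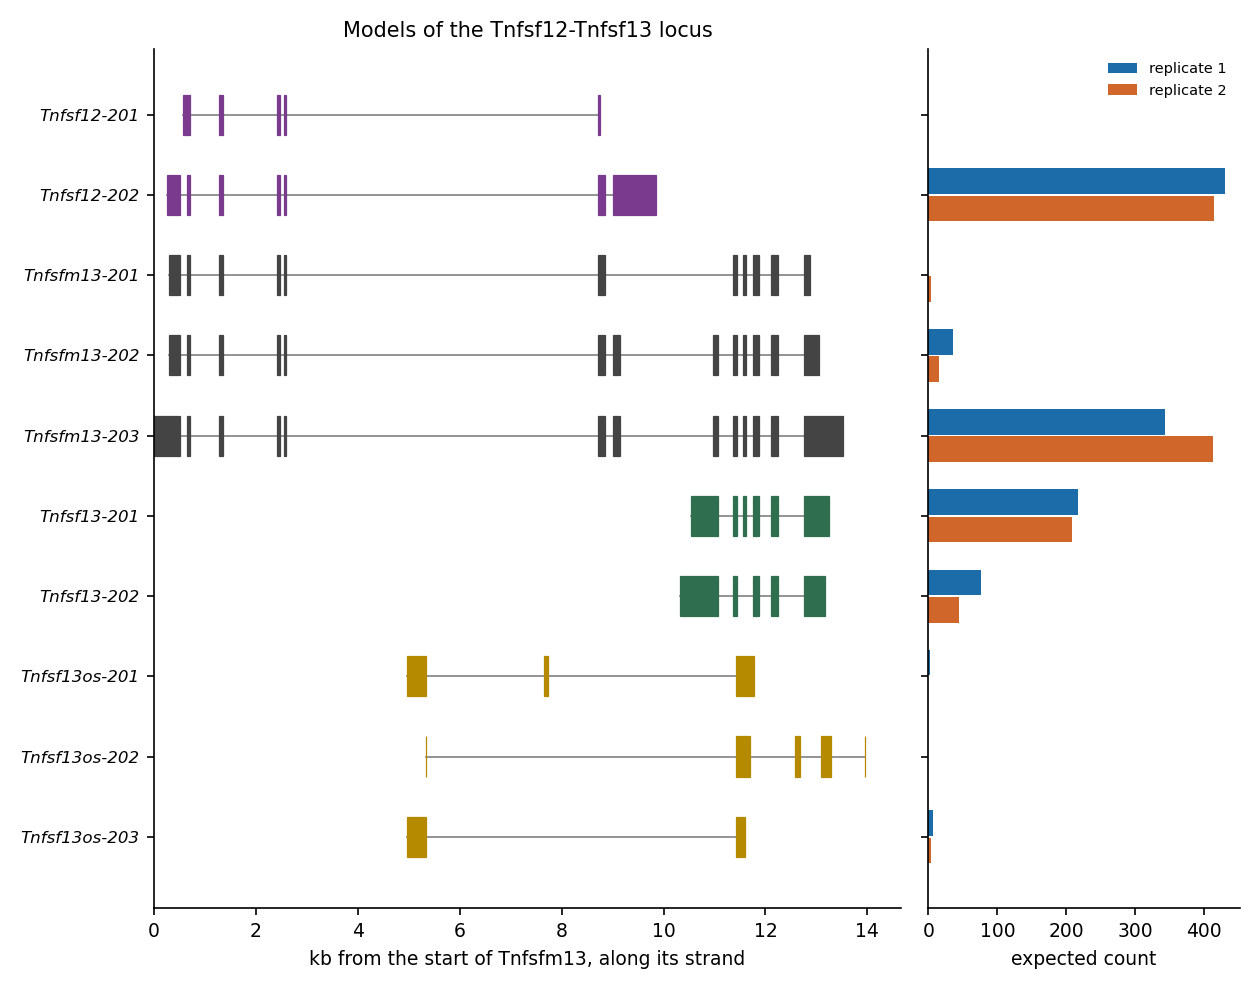
Exons (boxes) of every model of Tnfsf12, Tnfsfm13, Tnfsf13 and the antisense Tnfsf13os, in kb from the start of Tnfsfm13, with the expected count of each model in replicate 1 (blue) and replicate 2 (orange) on the right. The largest counts stand at Tnfsf12-202 (429.8 and 414) and Tnfsfm13-203 (343 and 413).

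Tnfsf14 and Tnfsf4 formed the next step down. Tnfsf14, the gene of LIGHT, a co-stimulator of T cells and a ligand of the lymphotoxin β receptor, had 3.06 and 1.51 TPM (SD 1.10), from 108 and 70 expected counts. It lies on the minus strand at chr17:57189492-57194177, 81.7 kb from Tnfsf9, with Cd70, a further family ligand, between them. Cd70 had 0.51 and 0.11 TPM, so within this cluster only Tnfsf9 was above 10 TPM, and Tnfsf9 was 247 and 354 times as abundant as Tnfsf14. Tnfsf4, the gene of OX40 ligand (chr1:161395409-161418410, plus strand), had 2.25 and 1.13 TPM (mean 1.69 ± 0.792), from 79 and 52 expected counts. Replicate 1 was the higher library for both genes, and the ranges of Tnfsf14 and Tnfsf4 overlapped. Tnfsf14 was above Tnfsf4 within each library by 0.44 and 0.42 on the log2 scale, but the authors' intervals for the 2 genes overlapped in each library.

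Of the ligands below detection, Tnfsf15 encodes TL1A, a co-stimulator of T cells, and lies at chr4:63727084-63745113 on the minus strand. It had 0.90 and 0.44 TPM (mean 0.67 ± 0.325), from 61 and 39 counts. Tnfsf8, the gene of CD30 ligand, is its neighbour at chr4:63831308-63861347, 86.2 kb away with no protein-coding gene wholly between. Tnfsf8 had 0.15 and 0.17 TPM (mean 0.16 ± 0.0141), from 12 and 17 counts. It was the least abundant ligand in both libraries. Tnfsf10, the gene of TRAIL (chr3:27317028-27342427, plus strand), had 0.75 and 0.33 TPM (mean 0.54 ± 0.297), from 70 and 45 counts. None of these 4 undetected ligands was at 0 counts in either library.

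Tnfsf13b encodes BAFF, the survival factor of B cells, and was the ligand with the most models. Its gene, chr8:10006467-10039072 on the plus strand, has 6 models, of which 2 are protein-coding. It had 0.64 and 0.41 TPM (mean 0.525 ± 0.163), from 18 and 17 expected counts. All of that was assigned to models without a full coding sequence, and both coding models had a TPM of 0 in both libraries. The retained-intron model Tnfsf13b-204 took 8.62 and 14.0 counts, the retained-intron model Tnfsf13b-206 3.34 and 3, the model marked for nonsense-mediated decay, Tnfsf13b-205, 4.50 and 0, and the processed transcript Tnfsf13b-202 1.54 and 0.

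No other ligand has such a model in the annotation, whereas 60.2% of protein-coding genes do. Among protein-coding genes with both kinds of model and a TPM above 0 in both libraries, 1.97% had all of it in the non-coding classes, and 2.96% did among those with a mean expected count of 10 to 30. The FASTQ-derived tables gave the coding model Tnfsf13b-201 0.0396 and 0.0138 TPM and left 93.7% ± 3.08 (SD, n = 2) of the gene's TPM in the non-coding classes. Both quantifications thus placed nearly all reads of Tnfsf13b in models that keep intron sequence or lack a full coding sequence, on 18 and 17 expected counts in the alignment-based tables and 34.02 and 45.41 estimated counts in the FASTQ-derived ones.

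These 30-base sequences are shown because they tell the coding models Tnfsf13b-203 and Tnfsf13b-201 from Tnfsf13b-204, the model with the most counts, around exon 4, with the 15 bases after the border in capitals:
Tnfsf13b-203, exon 4 spliced to exon 5: cgactatacgaaaagGAACTTACACATTTG
Tnfsf13b-204, exon 4 runs into the intron: cgactatacgaaaagGTAATGACCGGCCAT
Tnfsf13b-201, exon 4 skipped: tgaacctcagaaacaGAACTTACACATTTG
Exon 4 of Tnfsf13b-203 ends at base 10021429 and is spliced to base 10031310, while Tnfsf13b-204 continues to base 10022900. In Tnfsf13b-201 base 10014261, the end of exon 3, is joined to base 10031310. Tnfsf13b-206 starts further downstream and holds none of the 3 sequences. The intron-keeping sequence is shared by Tnfsf13b-204 and Tnfsf13b-205, and each of the other 2 occurs in a single annotated model. A retained-intron model and unspliced nuclear RNA of the same gene contain the same bases there and cannot be told apart in these tables. A predicted gene, Gm44789, lies within the Tnfsf13b span on the opposite strand and had 10 and 7 counts.

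**Figure D3:**
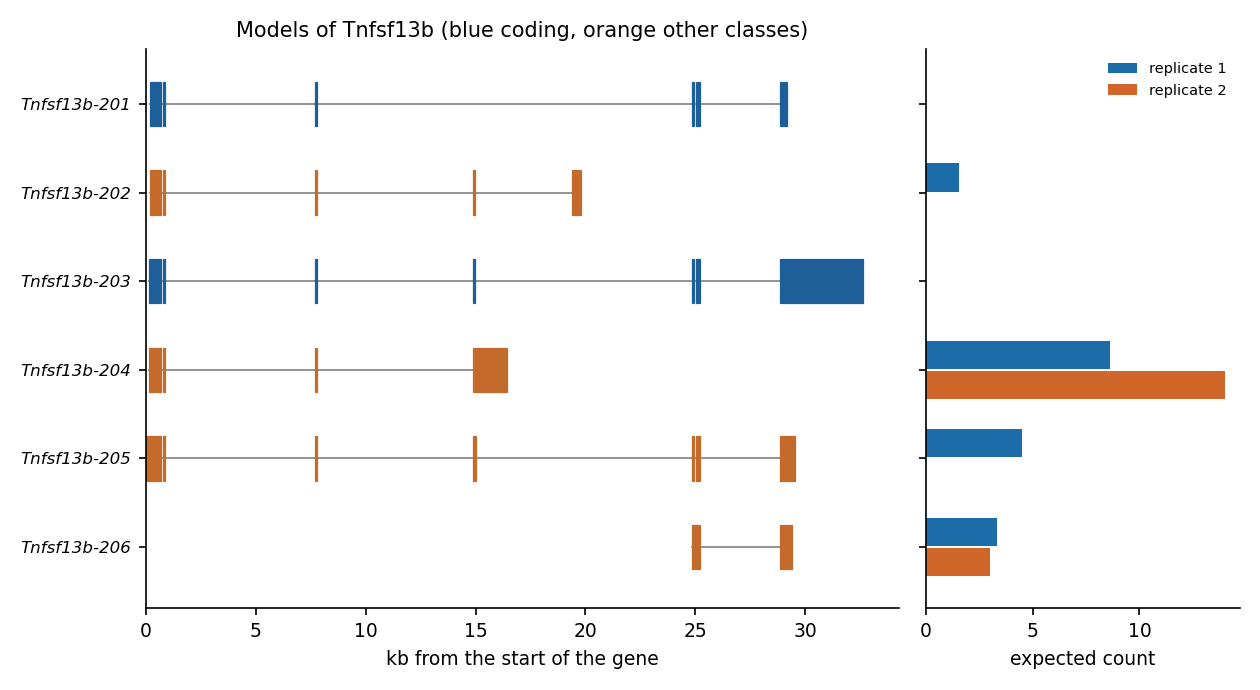
Exons (boxes) of the 6 Tnfsf13b models, coding in blue and other classes in orange, in kb from the start of the gene, with the expected count of each model in replicate 1 (blue) and replicate 2 (orange) on the right. The coding models have 0 counts and Tnfsf13b-204 has the most, 8.62 and 14.0.

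From the highest down, the order of mean TPM was Tnfsf9, Tnfsf12, Tnfsf13, Tnfsf14, Tnfsf4, Tnfsf15, Tnfsf10, Tnfsf13b, Tnfsf8. The gap between Tnfsf9 and Tnfsf12 was 5.46 and 5.36 on the log2(TPM + 1) scale (mean 5.41 ± 0.07), or 46.5 and 44.5 times in TPM. Of the 8 neighbouring steps, the replicate ranges overlapped in 3, Tnfsf14 to Tnfsf4, Tnfsf15 to Tnfsf10 and Tnfsf10 to Tnfsf13b. Tnfsf10 was above Tnfsf13b by 0.23 on the log2 scale in replicate 1 and lower by 0.31 in replicate 2, so these neighbours are not ordered. The step from Tnfsf13 to Tnfsf14 was 1.86 and 2.29, and from Tnfsf4 to Tnfsf15 1.32 and 1.36. The FASTQ-derived means gave the same order for all 36 pairs of ligands.

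The replicates were next compared gene by gene, after scaling counts to a common size with TMM, a trimmed-mean scaling of library totals. No test is possible with 1 library on each side. By this measure 0 of 9 ligands differed by 1.5-fold or more, beside 12.1% of the 11348 protein-coding genes whose expected counts averaged 10 or more. Tnfsf9 differed by -0.02 on the log2 scale (replicate 2 over replicate 1), Tnfsf12 by 0.04, Tnfsf13 by -0.11 and Tnfsf13b by 0.01. The 4 others of low abundance sat together just inside the limit on the lower side: Tnfsf4 at -0.49, Tnfsf10 at -0.52, Tnfsf14 at -0.52 and Tnfsf15 at -0.53. Tnfsf8 sat just inside the limit on the other side, at 0.53 on 12 and 17 counts. In FASTQ-derived counts scaled in the same way, Tnfsf4 was at -0.31, Tnfsf10 at -0.22, Tnfsf14 at -0.47 and Tnfsf15 at 0.25. By that quantification these 4 ligands did not sit together, and Tnfsf15 was higher in replicate 2.

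The count of 0 depends on the measure. Without the prior count, which pulls ratios of small counts towards 0, Tnfsf8 passed the limit at 0.60, beside 13.0% of genes, and in FASTQ-derived counts 1 of 9 passed, again Tnfsf8, beside 16.1%. In the deposited TPM, which carries the library-wide shift, 6 of 9 passed and all 6 were lower in replicate 2, beside 42.4% of genes. Several macrophage markers were also lower in replicate 2 by TMM-scaled counts, Fcgr1 by -0.93, Cd68 by -0.85, Csf1r by -0.65, Adgre1 by -0.48 and Itgam by -0.44. Lyz2 at -0.05, Cd14 at -0.02 and Mertk at 0.27 were not. The part of these differences, and of the lower RNA input of replicate 2, in the ratios of Tnfsf4, Tnfsf10, Tnfsf14 and Tnfsf15 was not tested.

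**Figure D4:**
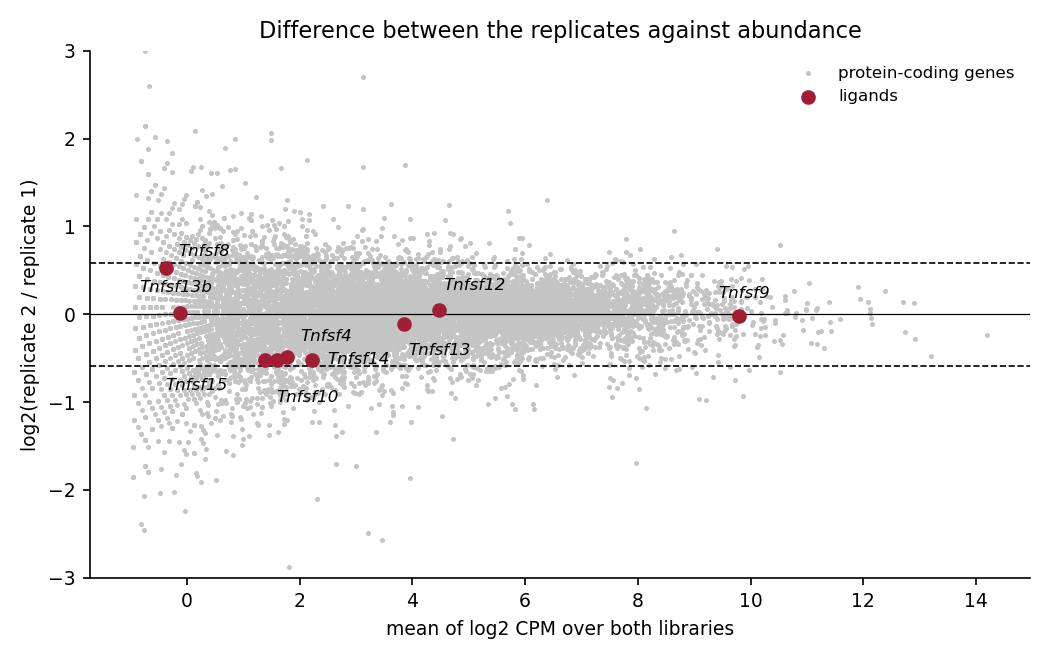
Log2 ratio of TMM-scaled CPM, replicate 2 over replicate 1, for 11348 protein-coding genes (grey) and the 9 ligands (red). The horizontal axis is the log2 of the mean CPM of both libraries, although its label reads mean of log2 CPM. Dashed lines mark 1.5-fold and 15 genes lie outside the axis. Tnfsf9, Tnfsf12, Tnfsf13 and Tnfsf13b lie near 0, and Tnfsf4, Tnfsf10, Tnfsf14 and Tnfsf15 lie between -0.49 and -0.53. In FASTQ-derived counts, not drawn here, Tnfsf15 was at 0.25.

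Of the 14 receptors of these ligands, 6 were detected (42.9%), close to the 40.0% of all protein-coding genes. The pairing of ligand and receptor levels was uneven. Tnfrsf9, the receptor of the dominant ligand, had 0.09 and 0.03 TPM, from 1 expected count in each library, and 0.264 and 0.440 TPM in the FASTQ-derived tables. The FASTQ-derived level came from 27.1 and 70.7 estimated counts. By both quantifications the receptor of the most abundant ligand was under 1 TPM. Its posterior mean was 0.81 and 0.65 TPM, and the authors' intervals, 0.239 to 1.55 and 0.176 to 1.30, reach past 1 TPM. Tnfrsf12a, which encodes Fn14, the receptor of Tnfsf12, had 5.69 and 2.64 TPM, below its ligand in each library. Of this, the retained-intron model Tnfrsf12a-205 held 3.05 and 0.84 TPM and the retained-intron model Tnfrsf12a-203 held 0.43 and 0.51. The rest lay in coding models.

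For Tnfsf14 the receptors exceeded the ligand. Tnfrsf14, which encodes HVEM, had 22.1 and 14.1 TPM (mean 18.1 ± 5.70), which was 7.24 and 9.33 times the level of Tnfsf14. Ltbr, the lymphotoxin β receptor, had 10.3 and 5.10 TPM, of which its coding model held 6.34 and 4.74. In replicate 1, 4.01 TPM rested on 3 counts of Ltbr-203, a retained-intron model of 215 bases. Tnfrsf8, which encodes CD30, the receptor of the least abundant ligand Tnfsf8, had 5.70 and 3.15 TPM. Of this, 5.01 and 2.81 TPM were assigned to Tnfrsf8-202, a model marked for nonsense-mediated decay. The coding model Tnfrsf8-201 held 0.69 and 0.35 TPM. The FASTQ-derived tables instead gave Tnfrsf8-202 0 and Tnfrsf8-201 2.80 and 1.83 TPM, so the quantifications differ on the model. Tnfrsf4, which encodes OX40 and binds Tnfsf4, had 0.34 and 0.31 TPM, and Tnfrsf25, which encodes DR3 and binds Tnfsf15, had 0.30 and 0.15 TPM. Both were under their ligands and under detection in both libraries.

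Tnfsf13 and Tnfsf13b share receptors. Tnfrsf13b, which encodes TACI and binds both, had 4.14 and 3.21 TPM. Of this, its coding model Tnfrsf13b-201 held 2.30 and 1.87 TPM, and models classed as processed transcripts held the rest. Tnfrsf17, which encodes BCMA and also binds both, had 1 count in replicate 1 and 0 in replicate 2, where 3 counts would be 0.179 TPM. Tnfrsf13c, which encodes the BAFF receptor, had 0 counts in both (3 counts would be 0.133 and 0.103 TPM), but 0.921 and 1.74 TPM in the FASTQ-derived tables. The quantifications therefore differ on whether any Tnfrsf13c RNA was present.

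Tnfsf10 has a death receptor in mouse, encoded by Tnfrsf10b, and decoy receptors encoded by Tnfrsf22, Tnfrsf23 and the secreted Tnfrsf11b. Tnfrsf10b had 0.57 and 0.52 TPM, Tnfrsf22 0.89 and 0.84 and Tnfrsf23 2.27 and 2.33. Of the Tnfrsf23 level, 0.30 and 0.79 TPM lay in the coding model Tnfrsf23-202 and the rest in models of other classes. Tnfrsf11b had 0 counts, where 3 counts would be 0.0534 and 0.0405 TPM. In the FASTQ-derived tables Tnfrsf10b had 2.93 and 2.90 TPM and Tnfrsf22 3.80 and 3.30, so by that quantification both passed detection.

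**Figure D5:**
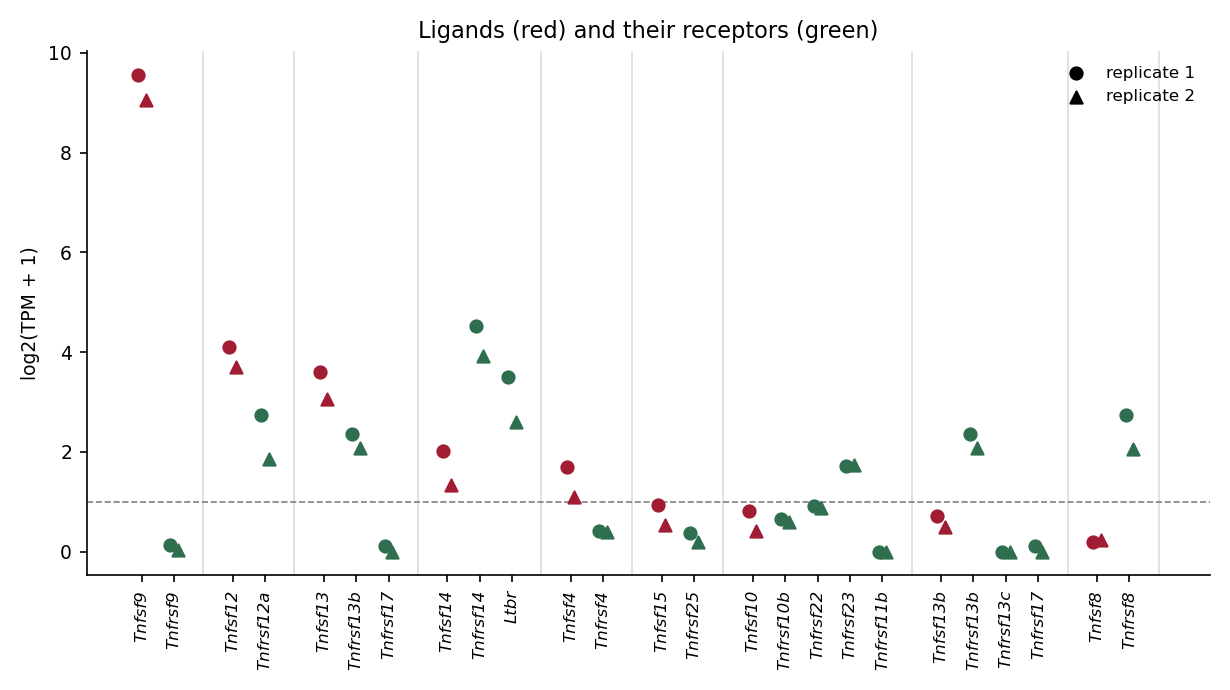
Log2(TPM + 1) of each ligand (red) beside its receptors (green) in replicate 1 (circles) and replicate 2 (triangles); the dashed line marks 1 TPM, and receptors of both Tnfsf13 and Tnfsf13b are drawn under each. Tnfrsf9 lies near 0 beside Tnfsf9, whereas Tnfrsf14, Ltbr and Tnfrsf8 lie above their ligands Tnfsf14 and Tnfsf8. Tnfrsf13b lies above Tnfsf13b but below Tnfsf13, and Tnfrsf22 and Tnfrsf23 lie above Tnfsf10.

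Among the 9 other ligands of the superfamily, Tnf was detected and 8 were not. Lta and Ltb, the lymphotoxins, had 0.83 and 0.76 TPM and 0.44 and 0.85 TPM, and Tnfsf18 had 0.25 and 0.19 TPM. Fasl, Cd40lg, Tnfsf11 and Eda had 0 expected counts in both libraries, a value no ligand described above had. In the FASTQ-derived tables Eda had 0.260 and 0.281 TPM, above Tnfsf8 at 0.0589 and 0.114 there. Over all 18 ligands of the superfamily, Tnf and Tnfsf9 were the 2 above 100 TPM.

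Genes that act downstream of the receptors were all present, with 14 of 14 detected and 9 at 10 TPM or more in both libraries, beside the shares of 40.0% and 14.3% over protein-coding genes. Cflar, whose product restrains caspase 8, had 364 and 241 TPM, and Birc3, a ubiquitin ligase of TRAF complexes, had 186 and 114 TPM. Nfkb2, a subunit gene of non-canonical NF-κB, had 82.8 and 67.0 TPM, and Relb, its partner subunit, had 52.4 and 36.4 TPM. Traf1, a TRAF adaptor, had 60.4 and 50.8 TPM, and Chuk, a kinase of the pathway, 38.1 and 26.3 TPM. Furin, a protease that releases TWEAK, APRIL and BAFF from the cell, had 44.1 and 28.4 TPM. Several of these genes are also known NF-κB targets, and without an unstimulated library their levels say nothing of the response.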

How the data were processed

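Nucleoplasmic RNA of 2 libraries was analysed. Per the file headers, the authors' alignment-based tables give expected counts, TPM, posterior mean TPM and its interval per gene and model. Their FASTQ-derived tables give estimated counts and TPM per model, which were summed by gene identifier. The deposited TPM is scaled over every feature of a table. Build mm10 and annotation GENCODE M21 come from the notes deposited with the tables. Program names, versions and strand handling were not given in the sources used here.

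Members, gene lists and the rule for named genes (all ligands, their receptors and overlapping genes, and up to 6 genes of other lists with a mean of at least 10 TPM) were chosen with earlier results of these data known. With 1 group no test was made and values are means ± SD over the 2 libraries. The libraries share a donor identifier, so their spread may be partly technical. Expected counts were rounded and scaled with TMM in edgeR 4.0.16 (R 4.3.3, prior count 2, mean count of at least 10). The ratio step was tested on simulated data. DESeq2 1.42.0 size factors and other scalings were alternatives. Words of 31 bases and 30-base sequences were read from GENCODE M21 transcripts. Where a gene had 0 counts, 3 counts were taken as its limit. Limits and the deposited intervals cover counting and assignment within a library only. PCR copies of a molecule cannot be recognised in such reads.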

Additional observations from a re-analysis of the deposited data

How the results depend on the processing

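Detected ligands numbered 5 and became 9 at a threshold of 0.1 TPM, 3 at 5 TPM, 3 in FASTQ-derived TPM and 8 in TPM rescaled over nuclear-encoded protein-coding genes, and stayed at 5 without either replicate. Ligands at 10 TPM or more numbered 2 and became 1 in FASTQ-derived TPM (Tnfsf9), with 2 to 3 when a replicate was left out. Detected receptors numbered 6 and became 10 at 0.1 TPM, 2 at 5 TPM and 8 in FASTQ-derived TPM. The shares of protein-coding genes past the limits were not counted under these alternative thresholds and scales. The median ligand level of 1.40 became 0.77 with a pseudocount of 0.1, 3.33 over ligands of at least 1 TPM in either replicate and 3.09 in rescaled TPM, with 1.09 to 1.70 when a replicate was left out. The gap from Tnfsf9 to the next ligand, 5.41, became 5.50 with a pseudocount of 0.1 and 5.25 in FASTQ-derived TPM, with 5.36 to 5.46 when a replicate was left out. Ligands past 1.5-fold between replicates numbered 0, with 6 in deposited TPM, 1 in FASTQ-derived estimated counts and, in an alternative chosen after seeing the data, 1 without a prior count. The number was 0 with DESeq2 size factors, with no filter on low counts and with a minimum of 100, which left 3 ligands. The share of Tnfsf13b in models without a full coding sequence, 100%, became 93.7% in FASTQ-derived TPM. The order of ligand levels held for 36 of 36 pairs in FASTQ-derived TPM, 34 in posterior mean TPM and 35 to 36 when a replicate was left out. The level moved by more than 1 SD for 9 of 9 ligands on rescaling, for 4 of 9 in FASTQ-derived TPM and for 0 of 9 in posterior mean TPM. With 2 libraries, leaving out a replicate cannot move a mean by more than 1 SD, so it says nothing of stability there. The cause of the differences between quantifications was not tested. Leaving out a replicate gives no ratio between replicates. No paired analysis was possible because the labels give 1 group. Ligands under 1 TPM rest on 12 to 70 expected counts a library, which limits their precision, and n is 2 throughout.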
